A study of Caenorhabditis elegans with 4 samples.

Results

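The genes described here encode the enzymes that shorten fatty acyl chains by beta-oxidation in the peroxisome of *C. elegans*, the same cycle that trims the side chains of ascarosides. They were chosen by name and not by a rule on their values, although earlier results of these data were known. The acyl-CoA oxidase genes are *acox-1.1* (F08A8.1), *acox-1.2* (F08A8.2), *acox-1.3* (F08A8.3) and *acox-1.4* (F08A8.4). The others are the enoyl-CoA hydratase gene *maoc-1* (E04F6.3), the hydroxyacyl-CoA dehydrogenase gene *dhs-28* (M03A8.1) and the thiolase gene *daf-22* (Y57A10C.6). These are 7 of the 46745 genes in the table of counts, and all 7 were tested. Total RNA of whole animals of the wild-type Bristol strain N2 was sequenced in 4 samples: 2 from animals given *L. paracasei* subsp. *paracasei* 2004 and 2 from animals given *E. coli* OP50, the usual laboratory food, each over 3 days starting on Day 1 of adulthood. The labels name no mutation or transgene. RNA was isolated from pooled animals, and the study's methods name NGM plates where the sample labels name S basal medium. Neither source says whether the samples of a food came from separate cultures. The p-values therefore set the food difference against the spread between these samples, which may be technical. That spread was estimated in part from values shared over all genes tested.

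In each round of the cycle, an acyl-CoA oxidase introduces a double bond, MAOC-1 hydrates it, DHS-28 oxidises the resulting hydroxyl group and DAF-22 splits off acetyl-CoA. Ascarosides are glycolipid signals that worms release, and those with short side chains act in the dauer pheromone, which promotes entry into the resistant dauer larva. Mutants of *daf-22*, *dhs-28* or *maoc-1* fail to make the short side chains and store long acyl chains in enlarged lipid droplets, and the intestine is a main site of the pathway.

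The samples held between 44548901 and 50504029 counts. Marker genes from all 6 lists of tissue and embryo markers were detected, as the label of whole animals implies. Detection at this depth is only a weak check of that label. The 7 intestinal markers summed to 998 and 819 CPM (the count scaled by the total count of its sample) with 2004 and to 364 and 412 CPM with OP50, and 1 of them, *vha-6*, was upregulated and 0 downregulated. Most of this sum with 2004 came from *vha-6* and *act-5*. *vha-6* had 440 and 351 CPM with 2004, against 94.3 and 119 CPM with OP50. *act-5* had 453 and 368 CPM with 2004, against 204 and 208 CPM with OP50. The log2 fold changes were 1.84 for *vha-6*, 0.93 for *act-5*, 0.63 for *pept-1* and 0.58 for *ifb-2*. Those of *elt-2*, *elt-7* and *ges-1* were 0.088, -0.18 and -0.69. The 5 body muscle markers summed to 423 and 379 CPM with 2004 and to 1238 and 1125 CPM with OP50, and 4 of them were downregulated. Of the tested markers of hypodermis, germline and oocyte, embryo and neuron, 1 of 5, 0 of 8, 2 of 8 and 0 of 5 were upregulated and 0 of 5, 0 of 8, 0 of 8 and 2 of 5 downregulated. The 8 germline and oocyte markers summed to 6578 and 6572 CPM with 2004 and to 5427 and 4429 CPM with OP50. Their median log2 fold change was 0.27. CPM is a share of the total count, so more RNA from one tissue lowers the CPM of the others. In whole animals, a smaller share of a tissue in the RNA and lower expression of its markers cannot be told apart. The part of these shifts in the results below was not tested.

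Among the 7 genes, only oxidase genes of the first step differed between the foods by the call defined below. The steps were not tested against each other. The oxidase genes *acox-1.2*, *acox-1.3* and *acox-1.4* were downregulated in animals fed 2004, by 2.15-fold, 4.27-fold and 2.63-fold. The oxidase gene *acox-1.1* and the genes of the 3 later steps, *maoc-1*, *dhs-28* and *daf-22*, did not pass the test and had log2 fold changes between -0.16 and 0.21. Upregulated and downregulated here mean that a gene differed by more than 2-fold with a p-value, adjusted after Benjamini and Hochberg over 12505 genes, below 0.1 in the quasi-likelihood test of edgeR. By this call 0 of the 7 genes were upregulated, against 7.55% of all genes tested, and 3 were downregulated, against 14.8%. The median log2 fold change was -0.16 over the 7 genes and -0.028 over all genes tested.

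**Figure D1:**
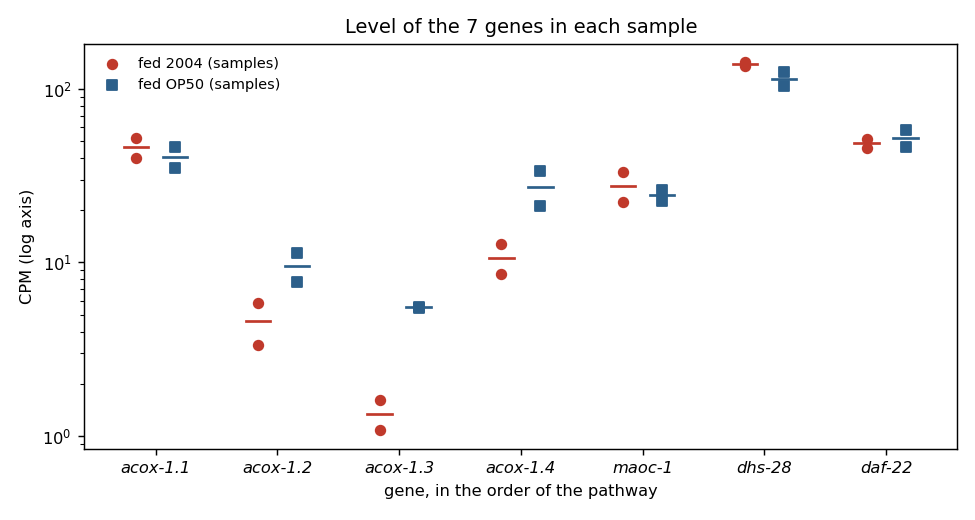
The level of each of the 7 genes in CPM (log axis) is plotted per sample, with circles for the 2 samples fed 2004 on the left, squares for the 2 samples fed OP50 on the right and a bar at each mean. The samples of the foods are apart for *acox-1.2*, *acox-1.3* and *acox-1.4*, with 2004 below, and for *dhs-28*, with 2004 above by less than the test required. Of all genes tested, 33.7% were apart with 2004 below and 37.5% with 2004 above.

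The acyl-CoA oxidases catalyse the first step, and in *C. elegans* they act as dimers whose make-up decides which ascaroside side chains are shortened. *acox-1.3* changed by the largest factor of the 7 genes. It had 1.62 and 1.08 CPM in animals fed 2004, against 5.48 and 5.56 CPM in animals fed OP50. Both 2004 samples lay below both OP50 samples, which was the case for 33.7% of all genes tested. This was a log2 fold change of -2.09 (SE 0.32, edgeR adjusted p = 0.000747), and it rested on 75 and 50 counts with 2004 and 244 and 281 counts with OP50.

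*acox-1.4* had 12.7 and 8.61 CPM in animals fed 2004, against 21.1 and 33.4 CPM in animals fed OP50. Both 2004 samples lay below both OP50 samples, as for 33.7% of all genes tested. The OP50 samples differed from each other more than the 2004 samples did. This was a log2 fold change of -1.397 (SE 0.22, edgeR adjusted p = 0.000892). The last 35 bases of *acox-1.4* overlap the gene F08A8.8 on the opposite strand. No source says whether strand was used in counting, so how reads from this overlap were assigned is not known.

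*acox-1.2*, which also encodes an oxidase of ascaroside side chains, had 5.83 and 3.37 CPM in animals fed 2004, against 7.72 and 11.3 CPM in animals fed OP50. Here too both 2004 samples lay below both OP50 samples, as for 33.7% of all genes tested. The higher 2004 sample and the lower OP50 sample were close to each other. This was a log2 fold change of -1.101 (SE 0.28, edgeR adjusted p = 0.0121). The size of this change depended on single samples: it was -0.77 without 2004 replicate 2 and -0.92 without OP50 replicate 2, both under the 2-fold threshold. Tested directly against a 2-fold change with glmTreat, *acox-1.3* passed (adjusted p = 0.0145), whereas *acox-1.4* (adjusted p = 0.143) and *acox-1.2* (adjusted p = 0.797) did not.

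*acox-1.1*, which encodes an oxidase needed for the short ascarosides of *C. elegans*, did not follow its neighbours. It had 52.4 and 40.1 CPM in animals fed 2004, against 46.4 and 34.8 CPM in animals fed OP50. The ranges of the foods overlapped, and the log2 fold change was 0.12 (SE 0.18, edgeR adjusted p = 0.642). Its sign depended on single samples, at -0.0091 without 2004 replicate 1 and -0.17 without OP50 replicate 2. The difference between its fold change and those of the other oxidase genes was not tested.

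The 4 oxidase genes lie in a row on the + strand of chromosome I and span 15449 bases of WBcel235 (Ensembl release 115). *acox-1.1* runs from 12938555 to 12942227, *acox-1.2* from 12942280 to 12946588, *acox-1.3* from 12946932 to 12951099 and *acox-1.4* from 12951134 to 12954003. The gaps between them measure 52, 343 and 34 bases. They belong to 1 gene family, and reads shared among them, if any, would move counts from one gene to another but leave their sum. The sum of the 4 genes was 72.5 and 53.1 CPM in animals fed 2004, against 80.7 and 85.1 CPM in animals fed OP50, a ratio of 0.758. Without *acox-1.1* the sum was 20.2 and 13.1 CPM with 2004, against 34.3 and 50.2 CPM with OP50, a ratio of 0.393. The part of *acox-1.1* in the sum of the 4 was accordingly 72.2% and 75.4% with 2004, against 57.5% and 41.0% with OP50.

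A paralog outside this row went the other way. *acox-1.5*, a further acyl-CoA oxidase gene, was upregulated, with 51.2 and 48.1 CPM in animals fed 2004, against 3.37 and 6.67 CPM in animals fed OP50 (log2 fold change 3.27, SE 0.24, edgeR adjusted p = 7.3e-06). The 2 other oxidase genes did not pass both thresholds: *acox-1.6* had a log2 fold change of -0.0098 (SE 0.20) and *acox-3* of -0.49 (SE 0.21). Summed over all 7 oxidase genes, the level was 152 and 122 CPM with 2004, against 112 and 121 CPM with OP50. The lower 2004 sample and the higher OP50 sample were nearly equal, at 121.9 and 121.1 CPM. These CPM are scaled by total count only, without the normalization of the test. The sum was not tested, so no difference between the foods is read from it. *acox-1.5* alone gained more CPM than the row on chromosome I lost.

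**Figure D2:**
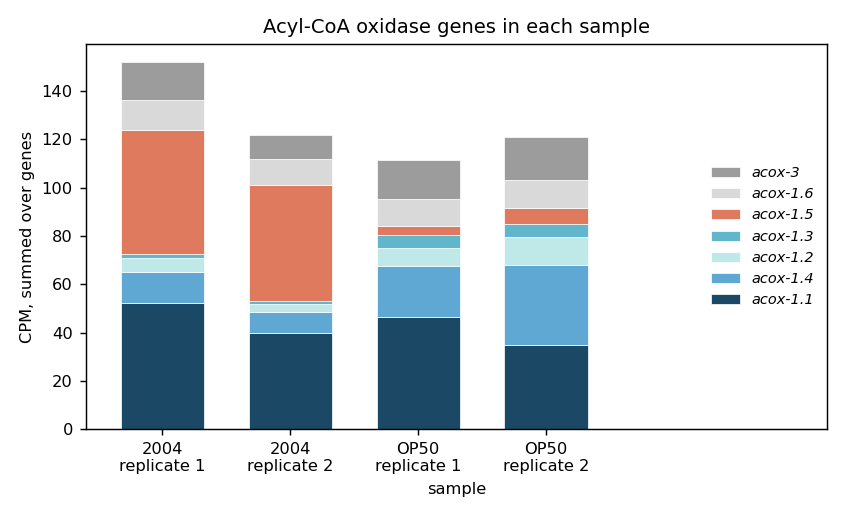
Stacked bars give the CPM of the 7 acyl-CoA oxidase genes in each sample, with the 2 samples fed 2004 on the left and the 2 samples fed OP50 on the right. The blue segments of *acox-1.2*, *acox-1.3* and *acox-1.4* are thinner with 2004, *acox-1.1* is of similar height in all samples, and the orange segment of *acox-1.5* is 51.2 and 48.1 CPM with 2004 and 3.37 and 6.67 CPM with OP50.

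The later steps are each carried by 1 gene here. *maoc-1*, on chromosome II from 7196276 to 7197495 on the + strand, encodes the hydratase of the second step. It had 33.1 and 22.1 CPM in animals fed 2004, against 22.6 and 26.3 CPM in animals fed OP50. The 2004 samples lay on either side of both OP50 samples (log2 fold change 0.12, SE 0.17, edgeR adjusted p = 0.615).

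*dhs-28*, on chromosome X from 6818438 to 6820080 on the + strand, encodes the dehydrogenase of the third step. It had 142 and 134 CPM in animals fed 2004, against 125 and 104 CPM in animals fed OP50. Both 2004 samples lay above both OP50 samples, as they did for 37.5% of all genes tested, and the difference did not pass the test (log2 fold change 0.21, SE 0.16, edgeR adjusted p = 0.311). Without OP50 replicate 2 its log2 fold change was -0.0077.

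*daf-22*, on chromosome II from 12423518 to 12425694 on the - strand, encodes the thiolase of the last step and is known for its role in pheromone production. It had 51.3 and 45.5 CPM in animals fed 2004, against 57.6 and 46.0 CPM in animals fed OP50. The ranges of the foods overlapped (log2 fold change -0.16, SE 0.16, edgeR adjusted p = 0.439). Of the 51 tested genes of the pathway lists, the 3 whose centred log2(CPM + 2) profile over the 4 samples lay nearest to that of *daf-22* by Euclidean distance were *ctl-2* (0.144), *hacl-1* (0.234) and *acox-1.6* (0.275). Their log2 fold changes were -0.13, -0.063 and -0.0098. Profiles that change little lie near each other by this distance, so it shows no more than that.

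Levels of different genes were compared per kilobase of exonic length. In animals fed 2004 the order was *dhs-28* with 98.0 ± 3.73 CPM per kilobase (SD, n = 2), *daf-22* with 36.3 ± 3.05, *maoc-1* with 26.0 ± 7.29, *acox-1.1* with 18.3 ± 3.46, *acox-1.4* with 5.15 ± 1.41, *acox-1.2* with 2.22 ± 0.839 and *acox-1.3* with 0.640 ± 0.181. In animals fed OP50 the order was the same, with 81.2 ± 10.2 CPM per kilobase (SD, n = 2) for *dhs-28*, 38.9 ± 6.16 for *daf-22*, 23.01 ± 2.41 for *maoc-1*, 16.1 ± 3.24 for *acox-1.1*, 13.2 ± 4.20 for *acox-1.4*, 4.59 ± 1.22 for *acox-1.2* and 2.62 ± 0.0291 for *acox-1.3*. The 3 genes of the later steps thus stood above every oxidase gene of the row on chromosome I in the means of both foods. Among neighbours in the order, *maoc-1* and *acox-1.1* came within their spread with 2004, where the lower sample of one and the higher sample of the other were both at 20.8 CPM per kilobase. *acox-1.1* and *acox-1.4* overlapped with OP50 only.

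The 7 genes also shared a difference between replicates. All 7 were higher in 2004 replicate 1 than in 2004 replicate 2, by factors between 1.06 for *dhs-28* and 1.73 for *acox-1.2*, and so were 67.5% of all genes tested. Between the OP50 samples 3 of the 7 genes, *daf-22*, *dhs-28* and *acox-1.1*, were higher in replicate 1, against 26.9% of all genes tested. The factors of replicate 1 over replicate 2 there were between 0.631 for *acox-1.4* and 1.33 for *acox-1.1*.

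The table lists transcripts, and 2 of the 7 genes have more than 1. The counts of *acox-1.1* went to transcript F08A8.1a.1 at 95.9% in 2004 replicate 1 but at 22.7% in 2004 replicate 2, against 88.9% and 88.4% in the OP50 samples. In 2004 replicate 2 they were spread over 5 transcripts that each took between 17.2% and 22.7%. The counts of *acox-1.4* went to F08A8.4.2 at 100% in both 2004 samples and in OP50 replicate 2, whereas 863 of its 939 counts in OP50 replicate 1 went to F08A8.4.1, which had 0 counts in the other samples. In a fit of 16577 transcripts none of the 3 tested *acox-1.1* transcripts nor F08A8.4.2 passed (adjusted p between 0.351 and 0.788), *acox-1.2* lost its call (adjusted p = 0.144) and *acox-1.3* kept it (adjusted p = 0.0602, edgeR). The values of *acox-1.1* and *acox-1.4* above therefore rest on sums over transcripts, in which this division has no part.

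**Figure D3:**
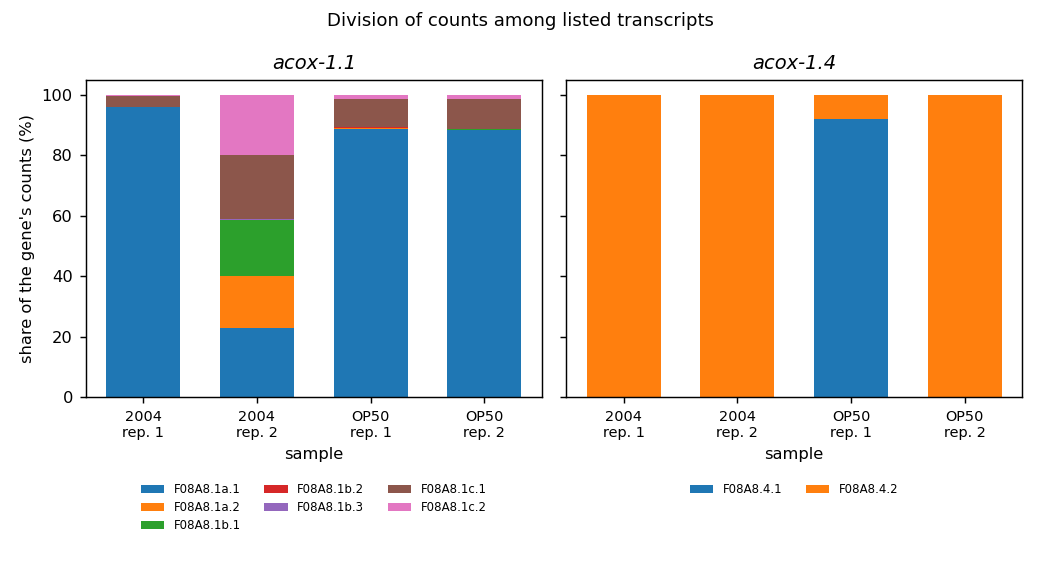
Stacked bars give the share of the counts of *acox-1.1* (left panel) and *acox-1.4* (right panel) that each listed transcript holds, in percent, for the samples fed 2004 and then those fed OP50. 1 sample in each panel stands apart: 2004 replicate 2 for *acox-1.1*, with 22.7% in F08A8.1a.1, and OP50 replicate 1 for *acox-1.4*, with 91.9% in F08A8.4.1.

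Around this cycle, 51 genes in 7 lists were tested, of which 5 were upregulated and 7 downregulated, shares near the 7.55% and 14.8% of all genes tested. Acyl chains enter the peroxisome through ABC transporters and are activated by acyl-CoA synthetases. Of 6 such genes 0 were upregulated and 1 was downregulated. *pmp-4* and *pmp-3* were higher with 2004 by less than 2-fold (log2 fold changes 0.98 and 0.39, edgeR adjusted p = 0.00489 and 0.0363). For *pmp-1*, *pmp-2* and *acs-7* the adjusted p-value was above 0.1. The median over the list was 0.25 on the log2 scale. The gene that fell was *pmp-5*, a peroxisomal ABC transporter gene, with 4.36 and 3.34 CPM in animals fed 2004, against 7.56 and 31.5 CPM in animals fed OP50. The OP50 samples differed widely, and its log2 fold change of -2.35 (SE 0.48, edgeR adjusted p = 0.00366) was -1.13 without OP50 replicate 2.

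Peroxins build the organelle and bring its enzymes in. Of 11 peroxin genes 1 was upregulated and 0 downregulated. The median over the list was 0.40 on the log2 scale, and all 11 log2 fold changes were above 0. Below 2-fold, *prx-3*, *prx-6* and *prx-12* were higher with 2004 (log2 fold changes 0.78, 0.85 and 0.90, edgeR adjusted p = 0.0467, 0.0413 and 0.0583). Apart from *prx-1*, the others had adjusted p-values above 0.1. The upregulated gene was *prx-1*, which encodes an ATPase of the import machinery and had 5.74 and 3.88 CPM with 2004, against 1.75 and 2.85 CPM with OP50 (log2 fold change 1.01, SE 0.32, edgeR adjusted p = 0.0307). It did not pass without 2004 replicate 1 (adjusted p = 0.175) or without OP50 replicate 1 (adjusted p = 0.111). Of 5 genes for other peroxisomal enzymes, catalase *ctl-2* and the ether lipid enzymes among them, 0 changed in either direction, with a median of 0.069 and the lowest adjusted p-value at 0.485.

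Carboxylesterases of the CEST family attach further groups to ascarosides and related glycolipids. Of 6 tested genes of this list, which also holds a GTPase gene for the lysosome-related organelles where this takes place, 3 were downregulated and 1 was upregulated, with a median log2 fold change of -0.97. *cest-1.1* had 4 and 0 counts in animals fed 2004, against 68 and 398 counts in animals fed OP50 (adjusted p = 0.000555, edgeR). *cest-2.2* differed by -1.51 on the log2 scale (SE 0.33, edgeR adjusted p = 0.00557) and *cest-4* by -1.19 (SE 0.29, edgeR adjusted p = 0.0094), which was -0.91 without OP50 replicate 2. *cest-8* differed by 1.06 on the log2 scale (SE 0.44, edgeR adjusted p = 0.0779) and lost its call in 6 of 14 alternatives.

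Mitochondria oxidise acyl chains by a separate set of enzymes. Of the 14 tested genes of this list 2 were upregulated and 3 downregulated. The median over the list was -0.033 on the log2 scale. The 3 that fell encode carnitine palmitoyltransferases, which transfer acyl chains between CoA and carnitine, a step of their entry into mitochondria. *cpt-4* had 1.04 and 0.583 CPM with 2004, against 50.1 and 49.3 CPM with OP50 (log2 fold change -5.997, SE 0.24, edgeR adjusted p = 1.2e-07). *cpt-3* had a log2 fold change of -4.10 (SE 0.34) and *cpt-5* of -3.06 (SE 0.22), whereas the other *cpt* genes stayed under the 2-fold threshold in both directions, with log2 fold changes of -0.71 for *cpt-1*, 0.35 for *cpt-2* and 0.54 for *cpt-6*. The 2 that rose were *hacd-1*, a hydroxyacyl-CoA dehydrogenase gene (log2 fold change 2.79, SE 0.14), and *acdh-13*, an acyl-CoA dehydrogenase gene (log2 fold change 1.14, SE 0.17). Of 6 regulators of lipid metabolism 0 passed both thresholds, with a median of 0.56. Below 2-fold, *nhr-66*, *mdt-15*, *nhr-13* and *nhr-80* had edgeR adjusted p-values under 0.1, with log2 fold changes of 0.60, 0.53, 0.62 and 0.62. *nhr-49* (0.19) and *daf-12* (-0.45) did not.

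**Figure D4:**
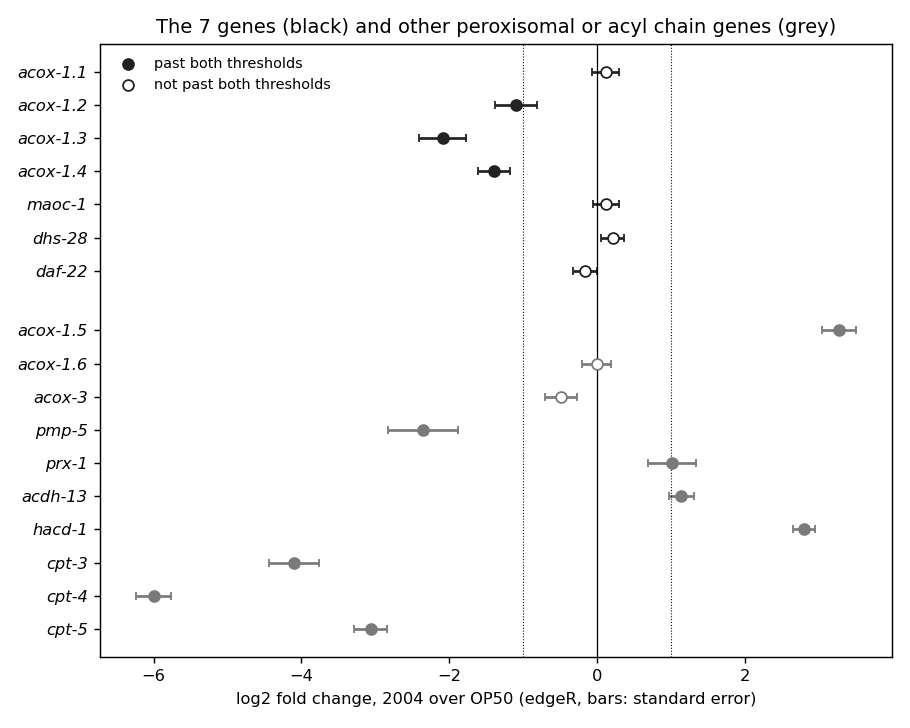
The log2 fold change of 2004 over OP50 (edgeR) is plotted with its standard error for the 7 genes in black and for 10 other peroxisomal or acyl chain genes in grey. Filled points passed both thresholds, open points did not, and dotted lines mark a 2-fold change. Apart from *acox-1.6* and *acox-3*, the grey genes are from the 12 of 51 tested list genes that passed both thresholds. The row *acox-1.2* to *acox-1.4* lies to the left, *acox-1.5* at 3.27 to the right and the later steps of the cycle near 0.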

How the data were processed

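The authors inspected the reads with FastQC 0.11.8, trimmed them with Trim Galore 0.6.4, aligned them to WBcel235 with HISAT2 2.1.0, used SAMtools 1.7 for sorting and StringTie 2.1.1 for counting, per the submitters' processing notes. The deposited values are whole-number estimated counts per transcript (57834 listed), which the authors did not normalize. The annotation release, read length and strandedness are not given in the sources used here.

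Counts were summed by sequence name to 46745 genes, of which 46450 matched 1 gene of Ensembl release 115. Genes reaching 0.5 CPM in 2 or more samples were tested with the edgeR 4.0.16 quasi-likelihood F-test (R 4.3.3), with TMM normalization and food as the only term. Standard errors were taken from the F statistic. The alternatives were DESeq2 1.42.0, limma-voom (limma 3.58.1), RLE size factors, library size alone, 3 filters, 3 thresholds, the replicate number as a block, a fit on transcripts and leaving out each sample. The 7 genes, the lists and the tests were chosen with earlier results of these data known. Named were the 7 genes and the 12 list genes past both thresholds, with the 3 nearest in profile to *daf-22*. *acox-3*, *cpt-1*, *cpt-2*, *cpt-6*, *pmp-1* to *pmp-4*, *acs-7*, *prx-3*, *prx-6*, *prx-12*, the lipid regulators, the intestinal markers, F08A8.8, F08A8.5 and *tag-138* were named after their values were seen. The code was tested on simulated data. Protein and promoter sequences were not analysed here.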

Additional observations from a re-analysis of the deposited data

How the results depend on the processing

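Every alternative fitted on genes gave 0 upregulated genes among the 7, and 3 downregulated ones, except 1 with glmTreat against 2-fold and between 2 and 3 when single samples were left out (with 1 sample of a food left, it was assumed to vary like the other food). Over all genes, glmTreat gave 333 upregulated and 670 downregulated genes, and an adjusted p-value under 0.1 with no fold threshold gave 2989 and 3154. Leaving out single samples gave between 658 and 957 upregulated and between 1246 and 1781 downregulated genes. *acox-1.3* kept its call in all 15 alternatives, with log2 fold changes between -2.33 and -1.85. *acox-1.4* lost it with glmTreat and in the fit on transcripts (-0.72 for F08A8.4.2), and *acox-1.2* lost it in 4 alternatives, the fit on transcripts included, in which *acox-1.3* alone of the 3 kept its call. The sign turned for *daf-22* (between -0.41 and 0.089 when single samples were left out, lowest without OP50 replicate 2 and highest without OP50 replicate 1), *dhs-28* (between -0.0077 and 0.42, lowest without OP50 replicate 2), *maoc-1* (between -0.12 and 0.36, lowest without 2004 replicate 1) and *acox-1.1* (between -0.17 and 0.42, at -0.0091 without 2004 replicate 1, and -0.39 for F08A8.1a.1 in the fit on transcripts). The causes were not tested.

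The replicate numbers are not stated to pair the samples, and deviations of same-numbered samples had a correlation of -0.14 over genes. With the replicate number as a block, 923 genes were upregulated and 1785 downregulated, and with the crossed pairing, chosen after seeing the data, 948 and 1845. The block changed no call among the 7 genes.

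Depth limits *acox-1.3* most, with 50 counts in 2004 replicate 2. Counts of same-food samples varied beyond Poisson error (chi-square over degrees of freedom 31.5 for 2004 and 70.0 for OP50), and none was counted as a repeat.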

Other observations

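The genes that flank the oxidase row were looked at after its values were seen. Beyond *acox-1.4*, the next genes F08A8.8 and F08A8.5 lie on the opposite strand, and both were downregulated. F08A8.8 had 77 and 116 counts in animals fed 2004, against 169 and 249 counts in animals fed OP50 (log2 fold change -1.098, SE 0.34, edgeR adjusted p = 0.0256). F08A8.5 had 32 and 45 counts in animals fed 2004, against 82 and 129 counts in animals fed OP50 (log2 fold change -1.43, SE 0.42, edgeR adjusted p = 0.0218). Both are weakly expressed. On the other side of the row, *tag-138* had 0 counts in both 2004 samples, against 0 and 6 with OP50, too few for a test.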
